A study of Mus musculus with 9 samples.

Results

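The BCL2 family survival and death genes described here are 10 genes, Bcl2l1, Bcl2, Mcl1, Bax, Bak1, Bbc3, Bcl2l11, Bid, Bad and Bik, taken by symbol from the 23285 genes of the authors' deposited table. All 10 were found and all 10 were tested in each of the 3 comparisons. RNA was sequenced from immature erythroid cells sorted out of the bone marrow of C57BL/6 mice, in 9 libraries that form 3 groups of 3. KOb cells carried TRIM28(flox/flox) and Mx1Cre, were called severely deleted by the submitters and were sorted as CD71(hi)TER119-. KOa cells carried the same alleles, were called modestly deleted and were sorted as CD71(hi)TER119+. FFa cells, the control, carried TRIM28(flox/flox) without Cre and were sorted as CD71(hi)TER119+. Mx1Cre is a recombinase driven by an interferon-responsive promoter, so it is switched on by poly(I:C) in many cell types besides erythroid cells. Per the series description, poly(I:C) was given 5 times and mice were analysed 2 weeks later, and 1 to 4% of the gene was undeleted in KOb and 5 to 8% in KOa. Whether FFa mice were also injected, how old the animals were, and whether each library stands for its own mouse, is not stated in the labels.

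BCL2 family proteins decide at the mitochondrial outer membrane whether a cell starts apoptosis. Survival members (BCL-xL, BCL2 and MCL1) hold the effectors BAX and BAK in check, and BH3-only members, which share a short helix called BH3, relieve that block or activate the effectors directly. In erythroblasts BCL-xL, the long product of Bcl2l1, is the main survival protein of the later stages and is induced by erythropoietin through STAT5, while MCL1 is needed at earlier stages. The values below are FPKM (fragments scaled by transcript length and library size), 1 per gene and group, which the authors computed over the 3 libraries together. No value therefore carries a spread between libraries, and the depth of each library is unknown. A ± after a log2 ratio gives a standard error, taken as the ratio divided by the test statistic that the authors deposited with it. A gene is said to have risen or fallen where its q, the p-value adjusted over all tested genes of the 3 comparisons, was below 0.05 in the authors' deposited table.

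The targeted gene Trim28 fell in both mutants, with 4.76 FPKM in KOb, 6.64 FPKM in KOa and 26.0 FPKM in FFa. KOb lay below KOa, as the labels rank them, but the 2 were not separated (q = 0.0535 in the authors' deposited table). Erythroid identity was checked on 10 marker genes, of which 8 were listed. All 8 were at 31.0 FPKM or more in KOb, at 42.6 FPKM or more in KOa and at 40.0 FPKM or more in FFa, so erythroid RNA was plain in every group. Beta globin, listed in 3 rows (Beta-s, Hbb-b2 and a joint row of Hbb-b1 and Hbb-b2), made up 52.5% of all FPKM in KOb, 75.7% in KOa and 63.9% in FFa. The FPKM of all genes summed to 53.2% of the FFa total in KOb and to 103.0% of it in KOa, and without beta globin to 70.1% in KOb and 69.4% in KOa. Granulocyte markers were present too, and their sum exceeded that of the 8 erythroid markers, which include no globin, in every group. It was 13424 FPKM in KOb, 16575 FPKM in KOa and 48836 FPKM in FFa. Beta globin alone was far above that, at 345846 FPKM in KOb, 965826 FPKM in KOa and 792056 FPKM in FFa. Over genes with at least 1 FPKM in both groups compared, KOa against FFa had a median log2 ratio of -0.05, KOb against FFa one of 0.02, and KOb against KOa one of 0.05.

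By the deposited q more of the 10 members were called in KOb against FFa than in KOa against FFa, which share a gate. The same held for all tested genes, and the stricter call given below did not keep this order for the members. In KOa 1 member rose (Bbc3) and 1 fell (Bcl2l11), which is 20% of the members. Of all tested genes 22.1% were called in that comparison, 7.99% higher and 14.1% lower, and of those with at least 1 FPKM in a group 25.5%. In KOb against FFa 2 rose (Bax and Bbc3) and 2 fell (Bcl2l1 and Bcl2l11), which is 40% of the members. Of all tested genes 28.0% were called there, 12.8% higher and 15.2% lower, and of those with at least 1 FPKM in a group 31.4%. Between the mutants 0 members rose in KOb and 1 fell (Bcl2l1), which is 10% of the members. Of all tested genes 16.2% were called there, 10% higher and 6.19% lower, and of those with at least 1 FPKM in a group 19.5%.

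The shares of members called were close to or below those of all genes in KOa against FFa and KOb against KOa, and above it in KOb against FFa. Each share rests on 10 genes, and the results that follow concern single genes rather than the family. At an unadjusted p under 0.05 the Cuffdiff test also had 0 members higher in KOb against KOa. A stricter call, the authors' statistic read as a standard normal and adjusted over all tested results, left 2 members in KOa against FFa (Bbc3 and Bcl2l11), 1 in KOb against FFa (Bcl2l11) and 0 in KOb against KOa. It called 7.48%, 9.55% and 2.70% of all tested genes in those 3 comparisons. The median log2 ratio of the members was 0.12 for KOa over FFa, beside -0.08 over all tested genes. It was -0.01 for KOb over FFa, as over all tested genes, and -0.34 for KOb over KOa, beside 0.05 over all tested genes. Over members with at least 1 FPKM in a group the median was -0.03 for KOb over KOa and 0.19 for KOb over FFa, so these medians move with the members of low level.

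**Figure D1:**
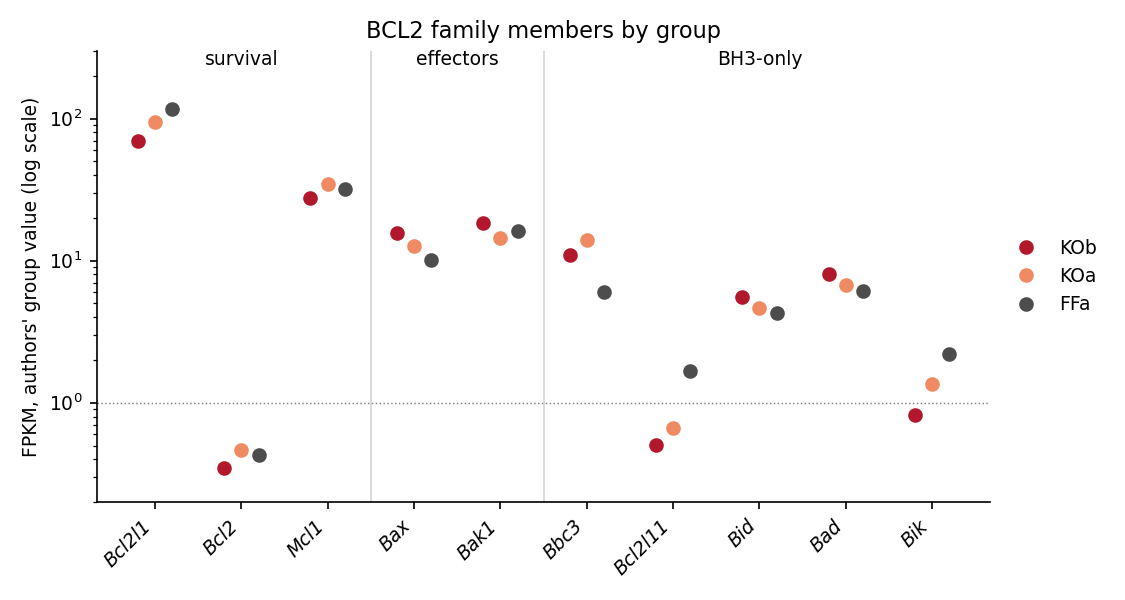
FPKM of the 10 members on a log axis, 1 point per group (KOb, KOa and FFa, the authors' value over 3 libraries); the dotted line is 1 FPKM. Bcl2l1 is the highest member and Bcl2 the lowest in every group, Bcl2l1 is lowest in KOb at 69.9 FPKM, and Bcl2l11 lies under 1 FPKM in both mutants.

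Bcl2l1 encodes BCL-xL and lies on chromosome 2 (152780668 to 152831682 of mm10). It was the most abundant member in every group, at 69.9 FPKM in KOb, 94.9 FPKM in KOa and 116.2 FPKM in FFa. This ranks it 509th of all genes in KOb, 424th in KOa and 389th in FFa. By the authors' scaling the level was thus ordered KOb below KOa below FFa. Its log2 ratio in KOb against FFa was -0.73 ± 0.27, a fall to 60.2% of the control (q = 0.000619 in the authors' deposited table). That q belongs to the smallest p the table holds, 5e-05. In KOb against KOa the log2 ratio was -0.44 ± 0.27, a fall to 73.7% (q = 0.0451 in the authors' deposited table). KOa and FFa, which share the sort gate, were not separated: the log2 ratio was -0.29 ± 0.27 (q = 0.226 in the authors' deposited table). The direction rests on the authors' scaling, under which the median gene hardly moved: as a share of the summed FPKM of each group, the log2 ratio of Bcl2l1 was 0.18 for KOb over FFa and 0.51 for KOb over KOa. With beta globin left out of the sums it was -0.22 and -0.45. For KOa over FFa, which was not called, it was -0.33 as a share of the summed FPKM and 0.24 without beta globin. The order of the 3 groups was thus kept under neither of these scalings. A fall of this size was not rare, since 14.0% of the 8502 genes with at least 1 FPKM in a group had a log2 ratio as low in KOb against FFa. Both calls fell short of the threshold under the normal reading, with a recomputed q of 0.0863 against FFa and 0.463 against KOa. Adjusted within the comparison alone, the call against KOa was lost too, with a recomputed q of 0.0618.

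The fall of Bcl2l1 in KOb stood beside lower erythroid markers. The 8 erythroid markers summed to 2799 FPKM in KOb, 4388 FPKM in KOa and 5394 FPKM in FFa, so KOb had 51.9% and KOa 81.4% of the control sum, beside 53.2% and 103.0% for the FPKM of all genes. In KOb against FFa 3 of the 8 fell and 0 rose. Alas2, the erythroid first enzyme of heme synthesis, had 861.3 FPKM in KOb, 1167 FPKM in KOa and 2082 FPKM in FFa. Since KOb was sorted as TER119-negative, the gate and the degree of deletion cannot be told apart in either comparison with KOb. In RNA from sorted populations, fewer cells of a type and less RNA per cell cannot be told apart either. Among 3020 other genes with at least 10 FPKM in a group and a test in both comparisons with FFa, the 3 whose pair of log2 ratios lay nearest to that of Bcl2l1 were Tcf19, Btg2 and Grina, at distances of 0.0076, 0.0120 and 0.0241. This likeness rests on 3 group values, and 30 genes lay within a distance of 0.1.

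Mcl1 encodes a short-lived survival protein and lies on chromosome 3 (95658721 to 95663178). It was the second most abundant member, at 27.8 FPKM in KOb, 34.6 FPKM in KOa and 31.9 FPKM in FFa. None of its 3 comparisons passed. Against FFa the log2 ratio of Mcl1 was 0.12 ± 0.28 for KOa and -0.20 ± 0.28 for KOb, and between the mutants it was -0.32 ± 0.28. Bcl2, the founding member (chromosome 1, 106538179 to 106714290), was barely present, at 0.348 FPKM in KOb, 0.465 FPKM in KOa and 0.427 FPKM in FFa. Its log2 ratios had standard errors of 0.54 to 0.57, and none passed, so only a large change could have been seen at this level. Bcl2l1 made up 71.3% of the summed FPKM of the 3 survival members in KOb, 73.0% in KOa and 78.2% in FFa. Mcl1 made up nearly all of the remainder, 28.3% in KOb, 26.7% in KOa and 21.5% in FFa.

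Of the effectors, Bax rose in KOb and Bak1 passed no test. Bax encodes the cytosolic effector that moves to mitochondria (chromosome 7, 45461695 to 45466898), and it had 15.6 FPKM in KOb, 12.8 FPKM in KOa and 10.1 FPKM in FFa. Its order was the reverse of that of Bcl2l1, and its exons overlap those of a gene on the same strand, Gm45808. Bax rose by a log2 ratio of 0.63 ± 0.29 in KOb against FFa, to 155% of the control (q = 0.0250 in the authors' deposited table). Of the genes with at least 1 FPKM in a group, 14.8% had a log2 ratio as high. In KOa against FFa the log2 ratio of Bax was 0.34 ± 0.30 and in KOb against KOa it was 0.29 ± 0.29, and neither passed. Under the normal reading of the statistic the call in KOb was lost, with a recomputed q of 0.221. Bak1 encodes the effector that resides in the mitochondrial membrane (chromosome 17, 27018035 to 27036378). It had 18.3 FPKM in KOb, 14.4 FPKM in KOa and 16.1 FPKM in FFa, with log2 ratios of -0.16 ± 0.28 in KOa against FFa and 0.19 ± 0.28 in KOb against FFa. Its largest difference was between the mutants, at 0.35 ± 0.29 (q = 0.159 in the authors' deposited table), which did not pass.

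Bbc3 and Bcl2l11, both BH3-only activators of apoptosis, changed in both mutants and in opposite directions. Bbc3 encodes PUMA, a classic target of p53, and lies on chromosome 7 (16309583 to 16318334). It had 10.9 FPKM in KOb, 13.9 FPKM in KOa and 6.00 FPKM in FFa. The rise was 1.22 ± 0.30 on the log2 scale in KOa against FFa, or 2.32-fold, and 0.86 ± 0.31 in KOb against FFa, or 1.81-fold (q = 0.000619 for both in the authors' deposited table). In KOa, 3.04% of genes with at least 1 FPKM in a group had a log2 ratio as high, and in KOb 9.01% did. KOb and KOa did not separate, at -0.36 ± 0.30 (q = 0.166 in the authors' deposited table). Under the normal reading of the statistic the call in KOa held, with a recomputed q of 0.00224, and that in KOb did not, with one of 0.0784.

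Bcl2l11 encodes BIM, whose gene FOXO3 activates in blood cells and which limits the survival of lymphocytes and erythroid progenitors. It lies on chromosome 2 (128126038 to 128162547), and it had 0.506 FPKM in KOb, 0.669 FPKM in KOa and 1.68 FPKM in FFa. KOb had 30.1% and KOa 39.8% of the FFa level, log2 ratios of -1.73 ± 0.48 and -1.33 ± 0.45 (q = 0.000619 for both in the authors' deposited table). Under the normal reading of the statistic both calls held, with a recomputed q of 0.00791 in KOb and 0.0475 in KOa. KOb and KOa did not separate, at -0.40 ± 0.54. The mutant values lie under 1 FPKM, and with 1 FPKM added to each group as a pseudocount the log2 ratio was -0.68 in KOa and -0.83 in KOb. Bbc3 was 21.5 times as abundant as Bcl2l11 in KOb, 20.8 times in KOa and 3.57 times in FFa.

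**Figure D2:**
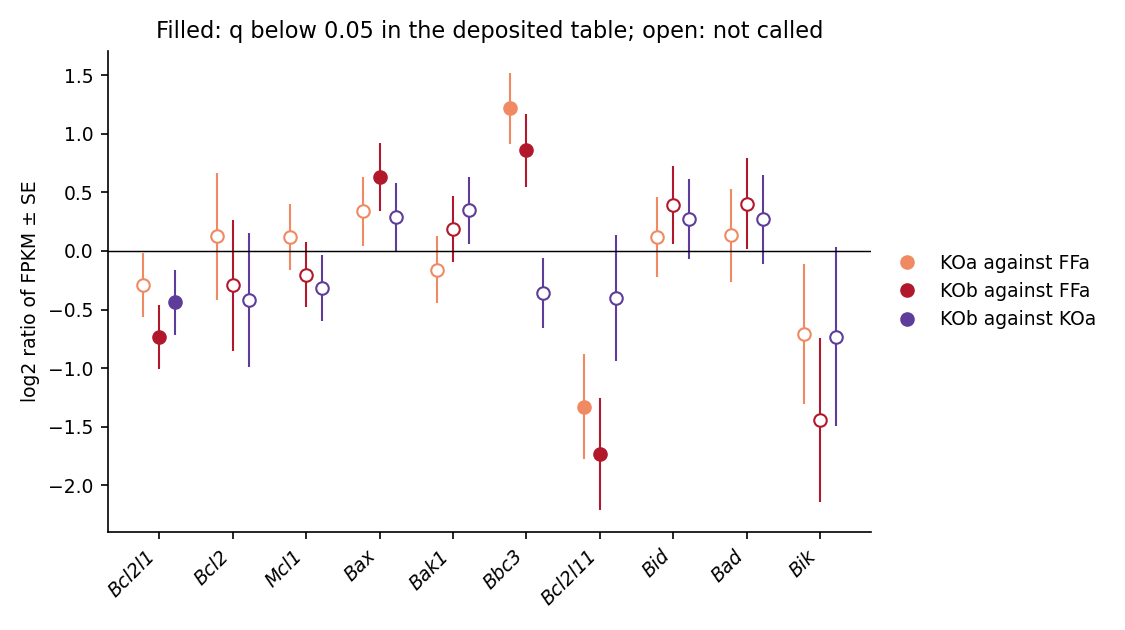
Log2 ratio of FPKM for each member in the 3 comparisons, with the standard error from the deposited statistic as bars; filled points passed q below 0.05 and open points did not. Bbc3 lies above 0 and Bcl2l11 below 0 in both mutants against FFa, and Bcl2l1 falls in KOb against both other groups, a direction that turns when FPKM are taken as shares of each group's sum.

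Bid, Bad and Bik were not called in any comparison. Bid encodes a BH3-only protein that caspase 8 cleaves, which links death receptors to mitochondria (chromosome 6, 120893119 to 120916820), and it had 5.59 FPKM in KOb, 4.62 FPKM in KOa and 4.26 FPKM in FFa. Bad encodes a BH3-only protein held inactive by phosphorylation and 14-3-3 binding (chromosome 19, 6938070 to 6951893), and it had 8.10 FPKM in KOb, 6.72 FPKM in KOa and 6.13 FPKM in FFa. In KOb against FFa the log2 ratio was 0.39 ± 0.34 for Bid and 0.40 ± 0.39 for Bad. Bik encodes a BH3-only protein of the endoplasmic reticulum (chromosome 15, 83526862 to 83544635), and it had 0.814 FPKM in KOb, 1.35 FPKM in KOa and 2.21 FPKM in FFa. In KOb against FFa its log2 ratio was -1.44 ± 0.70, just short of the threshold (q = 0.0520 in the authors' deposited table). With 1 FPKM added to each group it was -0.82. Adjusted within that comparison alone, the same deposited p gave a q of 0.0411 and a call.

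Summed over the family, survival members made up a smaller share of the FPKM in the mutants. Their share was 62.1% in KOb, 70.5% in KOa and 76.2% in FFa. The survival sum was mostly Bcl2l1, which made up 71.3% of it in KOb, 73.0% in KOa and 78.2% in FFa. The share also depends on the effector and BH3-only members, among them Bax and Bbc3, so it does not follow Bcl2l1 alone. Bcl2l1 was not called in KOa against FFa. Effectors made up 21.5% in KOb, 14.7% in KOa and 13.4% in FFa, and BH3-only members 16.4% in KOb, 14.8% in KOa and 10.4% in FFa. The ratio of Bcl2l1 to Bax was 4.47 in KOb, 7.43 in KOa and 11.5 in FFa. The ratio of Bcl2l1 to Bbc3 was 6.43 in KOb, 6.80 in KOa and 19.4 in FFa. These shares and ratios have no replicates and no test, and they describe RNA, not protein.

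**Figure D3:**
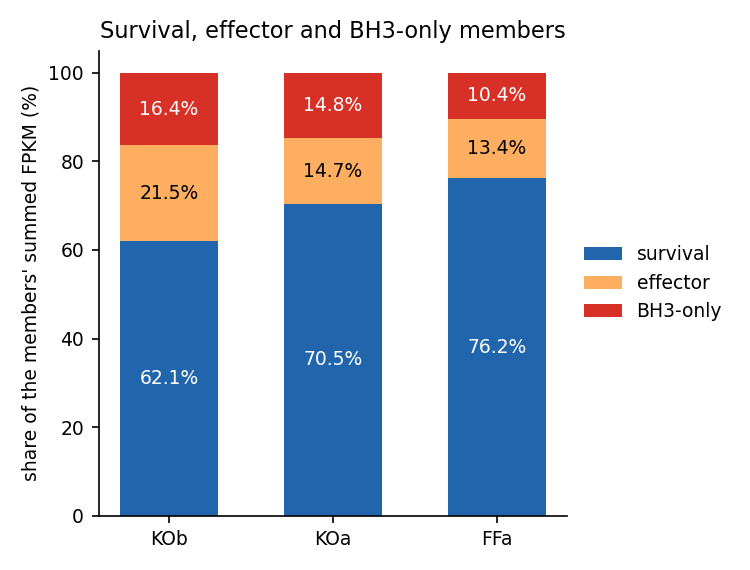
Stacked bars of the share of the members' summed FPKM held by survival, effector and BH3-only members in KOb, KOa and FFa, starting at 0 and adding up to 100%. The survival share is 62.1% in KOb, 70.5% in KOa and 76.2% in FFa.

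Reads can be shared where genes overlap. In the GENCODE M21 annotation of the same build, exons of 5 of the 10 members overlap exons of another gene and those of 5 do not, and no source states whether the counting used strand. Bcl2l1, Mcl1, Bbc3, Bcl2l11 and Bik are free of such overlap. For Bax the overlap is with the predicted gene Gm45808 on the same strand, and for Bcl2 with the antisense RNA D630008O14Rik. Bak1 overlaps Ggnbp1 on the opposite strand, which had 0.299 FPKM in KOb, 0.319 FPKM in KOa and 0.270 FPKM in FFa. Bad overlaps Gpr137, also on the opposite strand, at 1.00 FPKM in KOb, 0.931 FPKM in KOa and 1.498 FPKM in FFa. Bid overlaps Bcl2l13, a larger neighbour in level, at 10.7 FPKM in KOb, 9.97 FPKM in KOa and 7.69 FPKM in FFa.

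The sequence before the start of each called member was read to show the members that moved. RefSeq starts of build GRCm38.p6, the assembly of mm10, were matched by symbol for 9 of the 10 members, with 15 windows of 250 bases in all. Each window was searched on both strands for the FOXO motif GTAAACA, the GATA motif AGATAA, the STAT motif (TTC and GAA with any 3 bases between), the E-box CACGTG and the p53 half-site. Among 32851 such windows of all genes, 3.17% held the FOXO motif, 9.99% the GATA motif, 7.02% the STAT motif, 6.02% the E-box and 7.13% the p53 half-site. In the windows printed, capitals mark the matches, which do not overlap each other. The window of Bcl2l11 (chr2:128125788-128126037, plus strand), the member that fell most, holds the FOXO motif 227 to 221 bases before the start.
Bcl2l11: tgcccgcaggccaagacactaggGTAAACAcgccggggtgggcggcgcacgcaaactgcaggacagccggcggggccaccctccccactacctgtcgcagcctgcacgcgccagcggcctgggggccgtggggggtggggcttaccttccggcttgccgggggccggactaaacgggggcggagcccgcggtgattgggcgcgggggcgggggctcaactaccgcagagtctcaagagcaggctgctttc
Bbc3, which rose, has 3 annotated starts, and the window of the second (chr7:16310011-16310260, plus strand, clear of annotated exons) holds the FOXO motif on the opposite strand 167 to 161 bases before that start.
Bbc3: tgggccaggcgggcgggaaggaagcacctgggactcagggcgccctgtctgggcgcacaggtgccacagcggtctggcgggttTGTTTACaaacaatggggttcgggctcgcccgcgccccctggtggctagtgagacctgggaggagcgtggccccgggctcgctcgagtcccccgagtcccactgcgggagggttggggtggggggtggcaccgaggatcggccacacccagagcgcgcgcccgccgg
The window of Bax (chr7:45466899-45467148, minus strand) holds the p53 half-site 201 to 192 bases before the start and the E-box 9 to 4 bases before it.
Bax: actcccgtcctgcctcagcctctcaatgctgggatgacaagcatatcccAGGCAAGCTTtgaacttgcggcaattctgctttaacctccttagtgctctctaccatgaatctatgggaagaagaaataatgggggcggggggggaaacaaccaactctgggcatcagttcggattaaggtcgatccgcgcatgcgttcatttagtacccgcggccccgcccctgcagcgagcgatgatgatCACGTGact
For Bcl2l1 the most upstream of 3 starts (chr2:152831729-152831978, minus strand) gave a window with none of these letters.
Bcl2l1: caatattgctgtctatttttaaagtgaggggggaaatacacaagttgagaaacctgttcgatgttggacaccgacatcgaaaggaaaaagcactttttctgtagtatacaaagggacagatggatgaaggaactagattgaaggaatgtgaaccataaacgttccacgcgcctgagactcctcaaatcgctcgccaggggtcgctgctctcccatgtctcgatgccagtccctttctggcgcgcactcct
A GATA match was in the window of another Bcl2l1 start, 41 to 36 bases before it, and an E-box in that of the third Bbc3 start. The remaining windows of the members held no match. The FOXO motif was thus found before a start of a member that rose and of a member that fell. A match is only a run of letters, and binding was not measured.

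Of 90 other genes on 4 apoptosis lists, 76 were tested against FFa, and 18.4% were called in KOa and 28.9% in KOb, near the shares of all genes. In KOb against KOa 14.9% of 74 tested were called. Of 19 other BCL2 family genes 10 were tested. In KOa against FFa 0 rose and 2 fell, with 1 higher and 4 lower at an unadjusted p under 0.05 by Cuffdiff and 0 either way under the normal reading. In KOb against FFa 1 rose and 2 fell, or 0 and 2 under the normal reading, and in KOb against KOa 0 were called, with 1 higher and 2 lower at an unadjusted p under 0.05 by Cuffdiff and 0 under the normal reading. Bnip3l, which encodes the mitophagy receptor NIX of reticulocytes, had 132.0 FPKM in KOb, 170.7 FPKM in KOa and 243.3 FPKM in FFa. It fell in both mutants, with a log2 ratio of -0.51 ± 0.30 in KOa against FFa and -0.88 ± 0.30 in KOb against FFa. Bmf, another BH3-only gene, had 0.274 FPKM in KOb, 0.477 FPKM in KOa and 1.02 FPKM in FFa. Its log2 ratio was -1.10 ± 0.50 in KOa and -1.90 ± 0.60 in KOb, both called, so by the deposited test Bmf and Bcl2l11 fell in both mutants while Bbc3 rose. Bcl2l13, a BCL2-like protein of mitochondria, rose in KOb by 0.48 ± 0.29. Its q in the authors' deposited table was 0.0298, and its level cannot be set fully apart from that of Bid.

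Of 21 tested genes for the apoptosome, caspases and their inhibitors, 2 rose and 3 fell in KOa against FFa, and 2 rose and 3 fell in KOb against FFa. In KOb against KOa 3 of 20 rose and 0 fell, with 1 lower at an unadjusted p under 0.05 by Cuffdiff and 0 under the normal reading. Under the normal reading 0 rose and 0 fell in KOa and 0 rose and 1 fell (Birc3) in KOb against FFa, so the calls of Xiap, Diablo and Parp1 were lost. By the deposited test Birc3 and Xiap of the inhibitor family fell, and Birc2 and Birc6 were not called. Of the listed genes of that family only Naip2 was called higher. Birc5 and Naip2 were named after their values were seen. Birc5 fell in KOb against FFa only, with 176.9 FPKM in KOb, 218.3 FPKM in KOa and 244.8 FPKM in FFa. Naip2 rose to 0.922 FPKM in KOb and 0.954 FPKM in KOa, against 0.505 FPKM in FFa, under 1 FPKM in every group. Under the normal reading these calls were lost, with a recomputed q of 0.466 for Birc5, and of 0.436 in KOb and 0.394 in KOa for Naip2. Birc3, which encodes the ubiquitin ligase cIAP2, had 0.467 FPKM in KOb, 0.777 FPKM in KOa and 1.71 FPKM in FFa, with log2 ratios of -1.14 ± 0.49 in KOa and -1.88 ± 0.58 in KOb. Xiap, the direct caspase inhibitor gene, had 2.80 FPKM in KOb, 2.70 FPKM in KOa and 3.95 FPKM in FFa, with -0.55 ± 0.32 in KOa and -0.50 ± 0.32 in KOb. Diablo encodes SMAC, which displaces XIAP from caspases, and it had 14.1 FPKM in KOb, 13.2 FPKM in KOa and 9.14 FPKM in FFa. It rose by 0.53 ± 0.33 in KOa and 0.63 ± 0.33 in KOb. Parp1, which encodes a DNA repair enzyme cut by caspases, had 10.3 FPKM in KOb, 6.30 FPKM in KOa and 9.73 FPKM in FFa. It fell in KOa against FFa, at -0.63 ± 0.30, while KOb against FFa gave 0.08 ± 0.29 and no call. KOb and KOa differed, at 0.71 ± 0.30 (q = 0.00115 in the authors' deposited table).

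By the deposited test death receptor genes moved in both directions, as did all tested genes. Of 13 tested, 1 rose and 3 fell in KOa against FFa, and 3 rose and 1 fell in KOb against FFa. This is 30.8% in each, beside 22.1% of all tested genes in KOa and 28.0% in KOb. In KOb against KOa 1 of 12 rose and 0 fell, also 0 lower at an unadjusted p under 0.05 by Cuffdiff and under the normal reading. Under the normal reading 0 rose and 0 fell in KOa and 1 rose (Casp8) and 0 fell in KOb against FFa, so the calls of Fas, Tnfrsf1a and Ripk3, and that of Casp8 in KOa, were lost. Casp8, the initiator caspase that cleaves BID, rose in both mutants, with 8.01 FPKM in KOb, 6.59 FPKM in KOa and 3.68 FPKM in FFa. Its log2 ratio was 0.84 ± 0.36 in KOa and 1.12 ± 0.35 in KOb. Tnfrsf1a, the TNF receptor gene, fell in both, with 1.26 FPKM in KOb, 0.974 FPKM in KOa and 2.34 FPKM in FFa. Fas, a death receptor gene, had 0.626 FPKM in KOb, 0.492 FPKM in KOa and 1.72 FPKM in FFa. Its log2 ratio of -1.81 ± 0.97 in KOa was called and that of -1.46 ± 1.22 in KOb was not, and the mutants did not separate from each other (q = 0.810 in the authors' deposited table). Ripk3, which encodes the kinase of necroptosis, had 2.45 FPKM in KOb, 0.951 FPKM in KOa and 0.882 FPKM in FFa. It rose by 1.47 ± 0.58 in KOb against FFa and by 1.36 ± 0.57 in KOb against KOa (q = 0.00248 in the authors' deposited table for the second).

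Of 32 tested regulators of BCL2 family genes and proteins, 2 rose and 1 fell in KOa against FFa, and 6 rose and 4 fell in KOb against FFa. In KOb against KOa 3 of 32 rose and 4 fell. Under the normal reading 2 rose and 1 fell in KOa and 3 rose and 4 fell in KOb against FFa. Trp53, which encodes p53, had 35.5 FPKM in KOb, 43.9 FPKM in KOa and 15.5 FPKM in FFa. It rose by 1.51 ± 0.31 in KOa and 1.20 ± 0.31 in KOb against FFa. Bbc3 rose in these comparisons too, but a link between them was not tested and p53 activity was not measured. Bag1, whose protein binds BCL2 and heat shock protein 70, had 171.3 FPKM in KOb, 176.2 FPKM in KOa and 57.9 FPKM in FFa, rises of 1.56 ± 0.26 in KOb and 1.61 ± 0.26 in KOa. Foxo1, a factor of the FOXO class that activates Bcl2l11 in lymphocytes, had 0.366 FPKM in KOb, 0.490 FPKM in KOa and 1.29 FPKM in FFa, falls of 1.82 ± 0.50 in KOb and 1.39 ± 0.46 in KOa on the log2 scale. Pim2, a survival kinase gene whose product phosphorylates BAD, had 4.64 FPKM in KOb, 9.42 FPKM in KOa and 11.9 FPKM in FFa. It fell in KOb by 1.35 ± 0.32 against FFa and by 1.02 ± 0.32 against KOa on the log2 scale.

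**Figure D4:**
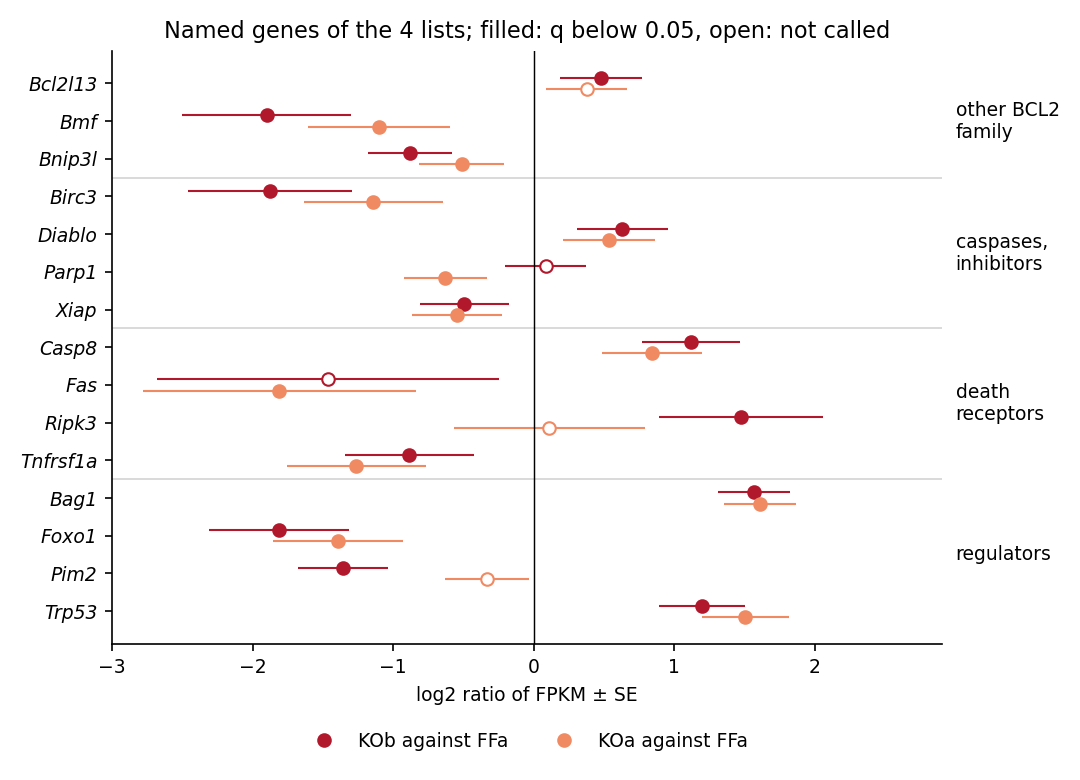
Log2 ratio of FPKM with its standard error for the 15 named genes of the 4 apoptosis lists, KOb and KOa each against FFa; filled points passed q below 0.05 and open points did not. Casp8, Diablo, Trp53 and Bag1 lie above 0 in both mutants, and Bmf, Birc3, Tnfrsf1a and Foxo1 below 0 in both.

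The summed markers of B cells, of granulocytes, and of macrophages and monocytes were lower in both mutants, as were Bcl2l11, Bmf, Birc3 and Foxo1. Those of T and NK cells were little lower, and those of megakaryocytes were higher. The 11 B cell markers summed to 22.7 FPKM in KOb, 24.5 FPKM in KOa and 241.7 FPKM in FFa, and 10 of 11 fell in each mutant against FFa. The 11 listed granulocyte markers summed to 13424 FPKM in KOb, 16575 FPKM in KOa and 48836 FPKM in FFa, with 7 falling and 2 rising of 11 in KOb and 5 falling and 2 rising of 11 in KOa. The 11 listed macrophage and monocyte markers summed to 98.0 FPKM in KOb, 103.8 FPKM in KOa and 381.5 FPKM in FFa, with 10 of 10 tested falling in KOb and 8 of 10 in KOa. These sums rest on few genes. S100a8 alone had 12078 FPKM in KOb, 14822 FPKM in KOa and 34935 FPKM in FFa, and Lyz2 had 63.9 FPKM in KOb, 49.7 FPKM in KOa and 284.4 FPKM in FFa. Granulocyte markers of early stages went the other way, as Elane with 20.3 FPKM in KOb, 13.2 FPKM in KOa and 5.37 FPKM in FFa. T and NK cell markers summed to 18.2 FPKM in KOb, 19.97 FPKM in KOa and 21.5 FPKM in FFa. Against FFa 1 rose and 3 fell of 8 tested in KOb, and 1 rose and 1 fell of 9 tested in KOa. No listed marker of these types was at 0 in any group.

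Leukocytes are known to express Bcl2l11, Bmf, Birc3 and Foxo1 as well. Against FFa, Bcl2l11 kept 30.1% in KOb and 39.8% in KOa, while the B cell sum kept 9.38% in KOb and 10.2% in KOa. The granulocyte sum kept 27.5% in KOb and 33.9% in KOa, and the macrophage and monocyte sum 25.7% in KOb and 27.2% in KOa. The part of these cells in the falls was not tested. Megakaryocyte markers summed to 56.3 FPKM in KOb, 69.8 FPKM in KOa and 38.6 FPKM in FFa. Of 6 tested, 3 rose and 2 fell in KOb and 3 rose and 1 fell in KOa, beside the rise of Bbc3, and their part in it was not tested. Few genes carried that sum. Gp9 had 24.4 FPKM in KOb, 34.8 FPKM in KOa and 27.8 FPKM in FFa, and Pf4 had 18.3, 22.9 and 3.85 FPKM. The stem and early progenitor markers summed to 14.1 FPKM in KOb, 6.85 FPKM in KOa and 9.18 FPKM in FFa. Myb alone had 8.57 FPKM in KOb, 3.61 FPKM in KOa and 7.48 FPKM in FFa. Against FFa 3 of 6 tested stem and progenitor markers rose in KOb, beside the rise of Bax and the fall of Bcl2l1 there. Kit, the receptor gene of early erythroid progenitors, had 2.36 FPKM in KOb, 0.751 FPKM in KOa and 0.399 FPKM in FFa. The part of less mature cells in these changes was not tested.

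**Figure D5:**
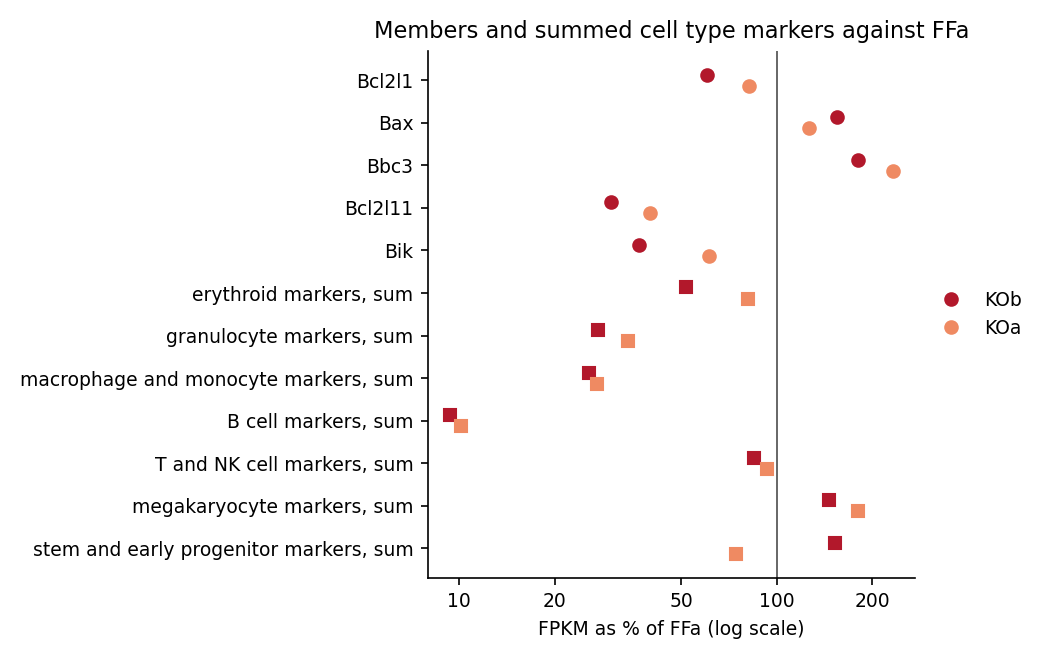
FPKM as a percentage of FFa on a log axis, for 5 members (circles) and for the summed markers of 7 cell types (squares), KOb above KOa in each row; the vertical line is FFa at 100%. Bcl2l11 lies left of the line, as do Bcl2l1, Bik and the erythroid, granulocyte, macrophage, B cell and T and NK cell sums. S100a8 carries most of the granulocyte sum, and Lyz2 is the largest part of the macrophage and monocyte sum. Bbc3 and Bax lie right of the line with the megakaryocyte sum. The stem and progenitor sum lies right of it in KOb and left of it in KOa.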

How the data were processed

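RNA from sorted bone marrow erythroid cells was purified on columns with DNase and made into libraries with the NuGEN Encore Complete system, per the labels' protocols. TopHat2 2.0.8b, Bowtie2 2.1.0 and Cuffdiff 2.1.1 with mm10 are named in the submitters' processing notes. Their order, the annotation, filters, strand setting and scaling across libraries were not given in the sources used.

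The authors deposited 1 table with an FPKM per gene and group, a log2 ratio without a pseudocount, a test statistic (a score) and a p-value with its q. The q was found to be a Benjamini-Hochberg adjustment over all 31813 tested results of the 3 comparisons together. The smallest p-value in the deposited table, 5e-05, is shared by 2570 results and gives a q of 0.000619.

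Computed here, in Python 3.11.15 with pandas 2.3.3 and scipy 1.17.1, were folds, shares, standard errors (log2 ratio over statistic), the normal reading of the statistic, counts per list and motif matches. The start of each locus was moved by 1 base, since the table counts from 0. With group values alone, no model across libraries and no leave-one-out fit could be made, and p-values measure only the spread the authors' tool estimated between libraries, which may be partly technical. Members and lists were chosen with earlier results of these data known. All 10 members are named. Of the 4 lists, up to 4 genes called against FFa with the largest log2 ratio and at least 1 FPKM in a group are named, and the 2 highest where none is called. Of 70 marker entries 4 had no match by symbol and were not analysed here. As a scaling chosen after seeing the data, FPKM were also taken as shares of each group's sum, with and without beta globin. The adjustment was tested on simulated data.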

Additional observations from a re-analysis of the deposited data

How the results depend on the processing

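Reading the deposited statistic as a standard normal left 0 members higher and 1 lower (Bcl2l11) in KOb against FFa, with 0 lower in KOb against KOa. Requiring a log2 change of at least 1 gave these counts as well (0 and 1 for KOb over FFa, 0 for KOb over KOa). Adjusting within each comparison alone lost the call of Bcl2l1 in KOb against KOa (0 members lower) and added Bik in KOb against FFa. The 2 calls in KOa against FFa held under all 4 alternatives for counts. A pseudocount of 0.1 or 1 FPKM and centring on the median gene turned no member's direction in any of the 30 ratios. Centring moved the ratios by at most 0.05, and the pseudocount of 1 FPKM by up to 0.90 (Bcl2l11 in KOb against FFa). Another pair of scalings was chosen after seeing the data. As a share of each group's summed FPKM, Bcl2l1 turned to 0.18 for KOb over FFa and 0.51 for KOb over KOa. No other called ratio of a member turned. Without beta globin in the sums no called ratio of a member turned. Some member ratios that were not called did turn, as that of Bcl2l1 for KOa over FFa, to 0.24 without beta globin. Bbc3 and Bcl2l11 kept their directions against FFa under both. The causes were not tested. The most uncertain members are those near or under 1 FPKM (Bcl2, Bcl2l11 and Bik). No paired analysis was possible because the table holds 1 value per gene and group, and for the same reason no library could be left out.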

Other observations

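A few genes near the family were picked after their values were seen. Stat5a, one of the STAT5 genes of erythropoietin signalling, had 3.53 FPKM in KOb, 1.30 FPKM in KOa and 1.51 FPKM in FFa. It rose by 1.22 ± 0.39 in KOb against FFa and by 1.44 ± 0.40 in KOb against KOa (q = 0.000619 for both in the authors' deposited table). Stat5b, the other STAT5 gene, had 5.12 FPKM in KOb, 5.00 FPKM in KOa and 5.02 FPKM in FFa and was not called. Epor, the erythropoietin receptor gene, had 31.0 FPKM in KOb, 42.6 FPKM in KOa and 40.0 FPKM in FFa. It fell in KOb against KOa with a log2 ratio of -0.46 ± 0.27 (q = 0.0356 in the authors' deposited table). Under the normal reading of the statistic that call was lost, with a recomputed q of 0.426. Foxo3, a factor that activates Bcl2l11 and Bbc3, had 26.7 FPKM in KOb, 44.5 FPKM in KOa and 47.2 FPKM in FFa. It fell by 0.82 ± 0.28 on the log2 scale in KOb against FFa, and its log2 ratio in KOa against FFa was -0.08 ± 0.28 (q = 0.767 in the authors' deposited table). The death receptor gene Tnfrsf25 was nearly silent in the control, with 0.758 FPKM in KOb, 1.28 FPKM in KOa and 0.0166 FPKM in FFa, and its log2 ratio of 6.27 ± 2.43 in KOa against FFa was not called (q = 0.320 in the authors' deposited table).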
